A study of Mus musculus with 2 samples.

Results

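The 34 genes described here encode proteins that carry a cell through mitosis and cytokinesis, and they were taken by name as a list of mitotic regulators out of 21938 protein-coding genes of the annotation. All 34 names were found. Their chromatin was examined in mouse CFU-E, which are erythroid progenitors that need erythropoietin to survive. The assay was ATAC-seq: the transposase Tn5 cuts and tags DNA where nucleosomes are missing, so that accessible sites give peaks. The single group held 2 libraries of primary cells from male C57BL/6J mice of 5 to 6 weeks, with 50000 cells per library and no treatment or mutation named in the labels. The libraries were numbered as replicates 1 and 2, with separate biosamples and 1 donor identifier. Whether they are independent animals is therefore not known, and with 1 group there is no contrast of conditions.

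Mitosis begins when CDK1, bound to A- and B-type cyclins, is switched on by CDC25 phosphatases. The spindle checkpoint then holds back the anaphase-promoting complex until every kinetochore is attached, after which separase cuts cohesin and the central spindle directs cleavage. Many of these genes are transcribed late in the cell cycle, through NF-Y bound to CCAAT boxes and MuvB complexes, with B-MYB and FOXM1, bound to the cell cycle genes homology region (CHR). CFU-E divide rapidly, and their descendants later lose the nucleus in an asymmetric process that shares components with cytokinesis.

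The promoter sequences are shown first because the letters compared further on lie in them. RefSeq windows of GRCm38.p6 (the mm10 build), from 250 bp before to 50 bp after a start, were at hand for 28 of the 34 genes. Ccna2, Cdc25c, Aurkb, Incenp, Tpx2 and Kif20a had no entry. Each stretch lies upstream of the RefSeq start, overlaps no annotated exon and is read 5′ to 3′ on the gene's strand. Capitals mark CCAAT, or ATTGG where CCAAT is on the opposite strand, and the CHR letters TTTGAA. Cdk1 (minus strand, chr10:69352939-69353098), Ccnb2 (minus strand, chr9:70421555-70421714) and Aurka (minus strand, chr2:172370571-172370680) are printed for their CCAAT boxes spaced 32 or 33 bp apart. Cdc20 (minus strand, chr4:118437353-118437512), Mki67 (minus strand, chr7:135716380-135716539) and Ect2 (minus strand, chr3:27153879-27154025) hold both kinds of letters, and Nuf2 (minus strand, chr1:169531465-169531624) holds neither.
Cdk1: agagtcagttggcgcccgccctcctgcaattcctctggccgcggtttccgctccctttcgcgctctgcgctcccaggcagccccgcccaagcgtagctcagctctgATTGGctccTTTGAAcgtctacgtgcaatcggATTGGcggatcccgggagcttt
Ccnb2: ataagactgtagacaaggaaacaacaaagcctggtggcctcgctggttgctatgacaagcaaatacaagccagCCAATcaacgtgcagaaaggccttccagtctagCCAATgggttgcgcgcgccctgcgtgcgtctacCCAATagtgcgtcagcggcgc
Aurka: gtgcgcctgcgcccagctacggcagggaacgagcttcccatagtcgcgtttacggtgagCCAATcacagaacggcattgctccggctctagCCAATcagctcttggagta
Cdc20: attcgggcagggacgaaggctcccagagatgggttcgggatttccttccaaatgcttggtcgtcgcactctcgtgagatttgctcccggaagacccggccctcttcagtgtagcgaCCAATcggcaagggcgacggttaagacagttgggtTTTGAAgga
Mki67: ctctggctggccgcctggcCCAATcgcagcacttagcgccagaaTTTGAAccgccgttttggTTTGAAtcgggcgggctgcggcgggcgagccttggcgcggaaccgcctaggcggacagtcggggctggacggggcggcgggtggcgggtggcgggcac
Ect2: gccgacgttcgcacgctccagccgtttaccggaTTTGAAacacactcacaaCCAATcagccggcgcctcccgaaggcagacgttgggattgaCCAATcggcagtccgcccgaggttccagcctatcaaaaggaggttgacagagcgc
Nuf2: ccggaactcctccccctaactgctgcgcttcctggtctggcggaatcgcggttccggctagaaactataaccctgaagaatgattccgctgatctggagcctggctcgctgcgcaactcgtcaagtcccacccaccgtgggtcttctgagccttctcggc

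In many of these genes the CHR letters sit close to the start. Stretches of 26 bases around it are shown for 6 genes, read on the strand that spells TTTGAA, which is in capitals. They come from Ccnb2 (minus strand, chr9:70421535-70421560), Ttk (minus strand, opposite to the gene, chr9:83834686-83834711), Cenpf (minus strand, chr1:189688069-189688094), Kif23 (minus strand, chr9:61946782-61946807), Racgap1 (minus strand, chr15:99651636-99651661) and Prc1 (plus strand, chr7:80294436-80294461).
Ccnb2: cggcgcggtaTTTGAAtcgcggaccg
Ttk: cggaaacacgTTTGAAatttccccgc
Cenpf: cggcgggcagTTTGAAtcgctcgtgc
Kif23: gattggcctgTTTGAAatgcgccggg
Racgap1: ggtgcgtgatTTTGAAccggatctgg
Prc1: tctggctcggTTTGAAttccgcgggg

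The promoters of all 34 genes were accessible. A promoter was called accessible when a merged region of a peak list came within 1 kb of any annotated start of the gene, and the main list was the series list that the authors thresholded on IDR, the irreproducible discovery rate. In that list 34 of 34 genes had such a region (exact Clopper-Pearson 95% interval 89.7% to 100%, counting error over genes only), beside 45.7% of the 21904 other protein-coding genes. The thresholded list of each replicate alone also held all 34, beside 43.4% of other genes in replicate 1, 42.5% in replicate 2 and 41.8% in both. The less strict overlap lists held all 34 as well, beside 52.0% of other genes in the series, 48.9% in replicate 1 and 48.0% in replicate 2. These genes carried a median of 6 annotated starts, against 3 for other genes. With starts of protein-coding transcripts alone, all 34 were called, beside 44.6% of other genes. The part of the number of starts was not tested.

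The list held 50003 records in 24394 regions, with 18685 regions in replicate 1 and 17854 in replicate 2. Markers were read to check the labelled cell type. A promoter region was found at 6 of 6 erythroid markers, with fold enrichment between 4.79 at Alas2 and 9.36 at Epor, and 5 of the 6 had one in both replicates' own lists. Alas2 was in neither of those. None of 4 granulocyte and monocyte, 4 lymphoid and 2 hepatocyte markers had a promoter region, and of 3 megakaryocyte markers only Itga2b did, at 8.94. In the presence of promoter regions, the markers thus went with the erythroid label. In fold they did not stand out: 0 of the 6 erythroid markers exceeded 10.7, the median of other genes with a promoter region. Peak lists give no number of cells in mitosis, so the share of dividing cells and the accessibility within a cell cannot be told apart.

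Fold enrichment is the height of a peak over the caller's local background. It is the authors' own value for each peak, each list has its own scale, and a gene is described by its strongest promoter region. Where 3 folds of a gene or region stand together, they are those of the series list, replicate 1 and replicate 2, in that order. The 34 genes had a median fold of 11.7 in the series list, with a lowest value of 6.97 at Cdc25b and a highest of 16.8 at Ttk. The 10015 other genes with a promoter region had a median of 10.7, with the middle 50% between 8.36 and 13.0. In replicate 1 the medians were 11.1 for these genes and 10.4 for the others, and in replicate 2 they were 11.6 and 10.4. The genes lay a little above the middle of other accessible promoters, and the ranges overlapped almost wholly. Counted singly, 22 of 34 exceeded the others' median fold, and 12 lay at or above their 75th percentile. Cdc25b and Aurkb were lowest, at percentiles 13.4 and 25.

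**Figure D1:**
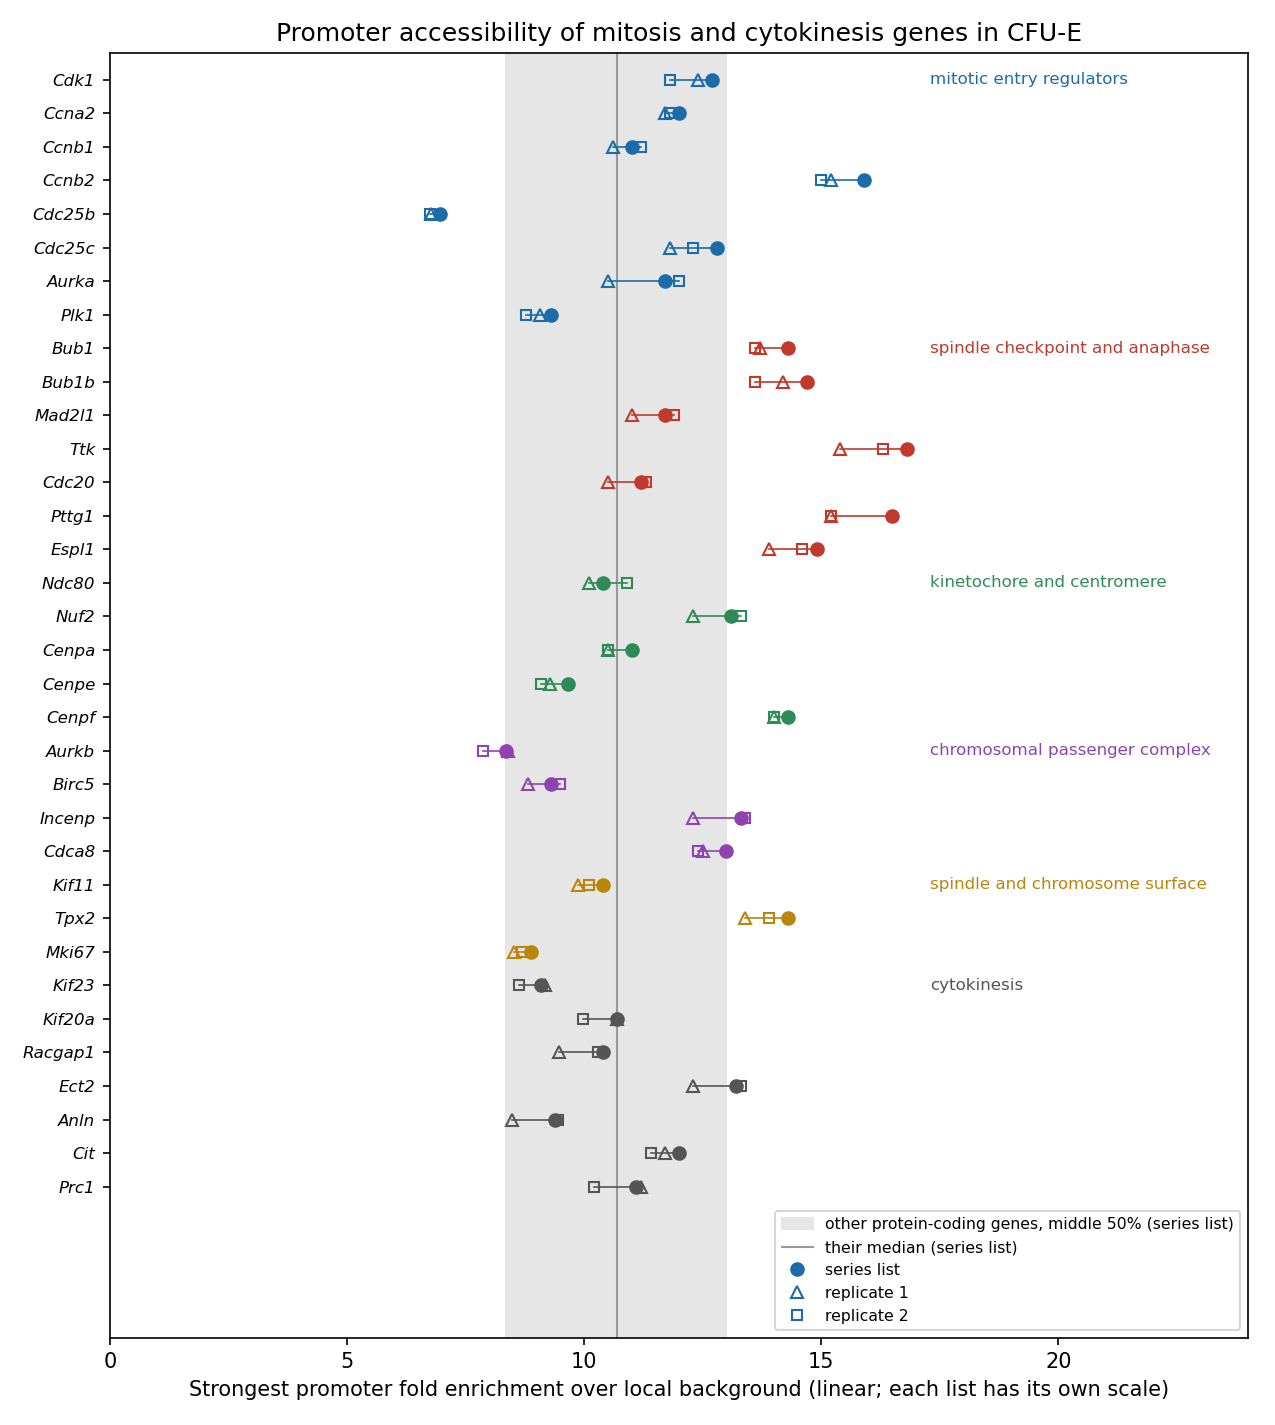
Strongest promoter fold enrichment (linear scale) of each of the 34 genes in the series list (filled circles) and in the lists of replicate 1 (triangles) and replicate 2 (squares), coloured by role. The shaded band is the middle 50% of other protein-coding genes in the series list (8.36 to 13.0) and the line their median (10.7); all 7 spindle checkpoint and anaphase genes lie right of the line, and Cdc25b lies left of the band.

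**Figure D2:**
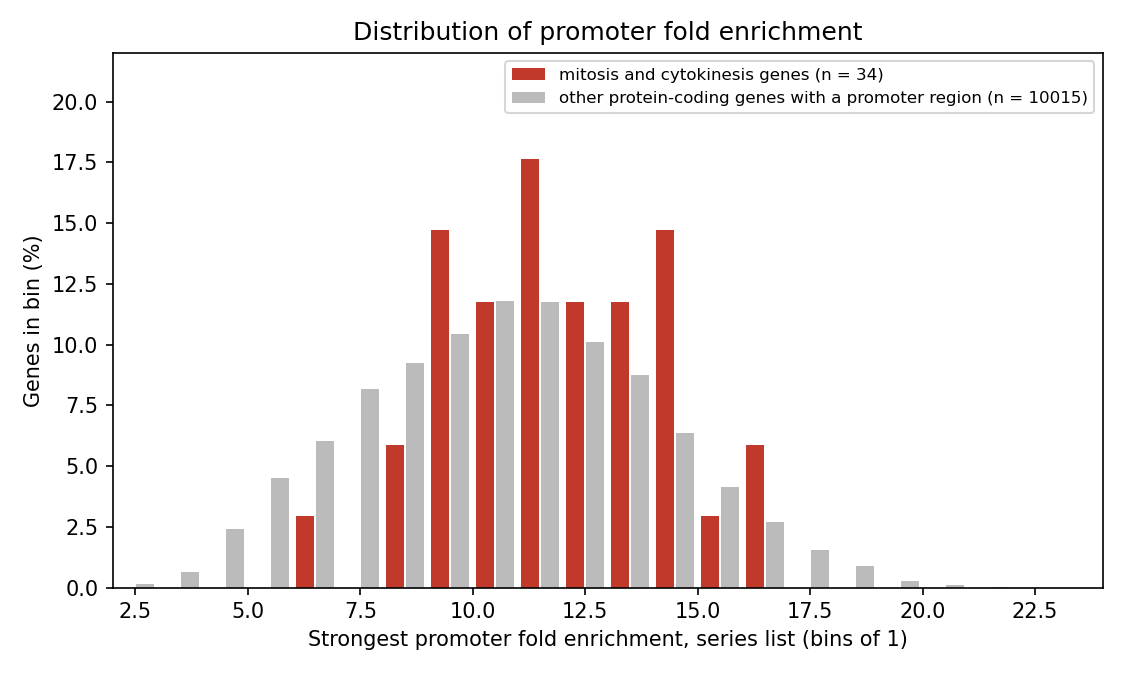
Share of genes (%) in bins of 1 unit of strongest promoter fold enrichment in the series list, for the 34 mitosis and cytokinesis genes and for 10015 other protein-coding genes with a promoter region. The distributions overlap over most of their range, with medians of 11.7 and 10.7.

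The authors' −log10 p stood further apart than the fold. It was the highest value in a gene's promoter regions and need not come from the peak that gave the fold. Its median was 178 in these genes and 129 in the others, and 29 of the 34 exceeded the others' median. The promoter regions were also wider, with a median of 1122 bp, against 942 bp in the others. The part of width in the difference in p was not tested.

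Genes of mitotic entry spanned the widest range of fold. Cdk1, the kinase at the centre of entry, had a series fold of 12.7, with 12.4 in replicate 1 and 11.8 in replicate 2, at percentile 72.7 of other promoters. Ccna2, an A-type cyclin, had 12.0, 11.7 and 11.8. Ccnb1, the main mitotic cyclin, had 11.0, 10.6 and 11.2. Its relative Ccnb2 stood well above it, with 15.9, 15.2 and 15.0, at percentile 94.2. The B-type cyclins thus lay on different sides of the others' upper quartile in each of the 3 lists. The phosphatases that activate CDK1 also stood apart from each other: Cdc25b had 6.97, 6.78 and 6.74, whereas Cdc25c had 12.8, 11.8 and 12.3. Cdc25b was at percentile 13.4, below every other gene of the list. Its main region was among the widest, however, at 1492 bp, and a second region of fold 5.14 had its summit 332 bp downstream of an internal start. Aurka, the centrosomal kinase, had 11.7, 10.5 and 12.0. Plk1, the polo kinase that acts from entry to cytokinesis, had 9.31, 9.07 and 8.78. Of these 8 genes, 6 exceeded the others' median.

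The spindle checkpoint and anaphase genes had the highest folds, with a role median of 14.7, and all 7 exceeded the others' median. Ttk, the kinase that starts checkpoint signalling and is also called MPS1 kinase, had a series fold of 16.8, with 15.4 in replicate 1 and 16.3 in replicate 2. Pttg1, which encodes securin, had 16.5, 15.2 and 15.2. Their percentiles among other promoters were 96.8 and 96.2 in the series list, and none was under 94.9 in the replicates. Espl1, encoding the separase that securin restrains, had 14.9, 13.9 and 14.6. The checkpoint kinase gene Bub1 had 14.3, 13.7 and 13.6, and Bub1b, whose product inhibits the anaphase-promoting complex, had 14.7, 14.2 and 13.6. Lower in the role were Mad2l1, the checkpoint protein that binds CDC20, with 11.7, 11.0 and 11.9, and Cdc20, the activator of the anaphase-promoting complex, with 11.2, 10.5 and 11.3. The 7 genes divided into 5 high ones and these last 2, and the 3 lists placed them on the same sides. The roles were grouped for description, and no role was tested against another.

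At the kinetochore, Cenpf, a large protein of the outer kinetochore, had the highest fold of 5 genes, at 14.3 in the series and 14.0 in each replicate. Nuf2 and Ndc80 encode partners in the complex that grips microtubule ends. Nuf2 had 13.1, 12.3 and 13.3, and Ndc80 had 10.4, 10.1 and 10.9, so that the partners differed in every list. Cenpa, the histone variant that marks centromeres, had 11.0, 10.5 and 10.5, and Cenpe, a kinesin that moves chromosomes to the spindle equator, had 9.66, 9.27 and 9.09. The role median was 11.0, close to that of other genes.

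The 4 subunits of the chromosomal passenger complex formed pairs. Incenp, its scaffold, had 13.3, 12.3 and 13.4, and Cdca8, which encodes borealin, had 13.0, 12.5 and 12.4. The kinase Aurkb had 8.36, 8.39 and 7.87, and Birc5, which encodes survivin, had 9.30, 8.81 and 9.49. Genes whose products work in 1 complex were therefore not alike in promoter fold, and the pairs did not overlap in any list. Among the spindle and chromosome surface genes, Tpx2, an activator of Aurora A, had 14.3, 13.4 and 13.9, and the spindle kinesin Kif11 had 10.4, 9.88 and 10.1. Mki67, encoding the proliferation antigen that coats mitotic chromosomes, had 8.88, 8.53 and 8.68, at percentile 30.1. The best known proliferation marker of the list thus had the third lowest promoter fold in the series list.

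Cytokinesis genes had a role median of 10.7, equal to that of other genes, and 3 of 7 exceeded it. Ect2, the exchange factor that activates RHOA at the cleavage site, was highest with 13.2, 12.3 and 13.3. Cit, encoding citron kinase, had 12.0, 11.7 and 11.4, and Prc1, which bundles central spindle microtubules, had 11.1, 11.2 and 10.2. The mitotic kinesin Kif20a had 10.7, 10.7 and 9.98. The centralspindlin subunits Racgap1 and Kif23 had 10.4, 9.48 and 10.3 and 9.10, 9.17 and 8.62, in that order. Anln, the scaffold anillin of the contractile ring, had 9.38, 8.47 and 9.44.

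Promoter summits lay just upstream of a start. The strongest summit was at a median of 70.0 bp upstream of the nearest annotated start (offset −70.0), against an offset of −38.0 in other genes. Only Cenpa and Cenpe had it downstream, or 5.88% of the 34, beside 23.0% of other genes with a promoter region. It lay within 100 bp of a start in 25 of 34, or 73.5%, beside 67.3% of the others. Between the replicates' own lists the summit agreed within 50 bp in 32 of 34 genes. The exceptions were Ccnb1, with offsets of −14 in replicate 1 and −135 in replicate 2, and Ndc80, with −246 in replicate 1 and −64 in replicate 2.

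A second promoter region was present at 7 of the 34 genes, or 20.6%, beside 25.5% of other genes with a promoter region and 11.7% of all other protein-coding genes, most of which have none. Set beside other accessible promoters, second regions were not more common here. The genes were Cdc25b, Cdc25c, Bub1, Cdc20, Cenpe, Racgap1 and Cit. The second region at Cit is the most distant: it lies at chr5:115944815-115945687, at an internal start 100019 bp from the first, and had a series fold of 8.92, with 8.45 in replicate 1 and 7.85 in replicate 2. Racgap1 had 3 regions, of which the one at chr15:99631698-99632140 has its summit 980 bp downstream of a start that is 18852 bp from the first, with a fold of 6.09 in the series and 5.77 in replicate 1. Replicate 2's own list did not hold that one. The other second regions flanked the main one and were weaker, between 4.28 and 6.65 in the series list. Those of Bub1, at 4.79, and Racgap1, at 4.28, were also missing from replicate 2's own list.

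Promoter regions shared with a neighbour were in the minority. A region within 1 kb of a protein-coding neighbour's start as well was found at 4 of the 34 genes, or 11.8%, beside 26.7% of other genes with a promoter region. The pairs were Cdc25b with Spef1, Aurka with Cstf1, Cdca8 with 9930104L06Rik and Kif20a with Brd8. At these 4 genes the accessibility cannot be assigned to 1 of the neighbours. Counting noncoding neighbours and pseudogenes too, 10 of the 34, or 29.4%, shared a region, beside 39.9% of other genes with a promoter region.

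The letters searched were CCAAT for the NF-Y box and TTTGAA for the CHR, each on both strands, and matches of the pair can share no more than 1 end base. CCAAT was in the RefSeq window of 21 of 28 genes, or 75% (exact 95% interval 55.1% to 89.3%). It was in 38.7% of 16494 other protein-coding genes and in 40.7% of the 7954 of them with a promoter region. TTTGAA was in 19 of 28, or 67.9% (exact 95% interval 47.6% to 84.1%), beside 15.5% of all other genes and 11.4% of those with a promoter region. Both occurred in 17 of 28, or 60.7%, beside 6.32% and 4.92%. With TTTAAA admitted as a second form of the CHR, a set that contains the first, the share was 78.6%, beside 24.5% and 18.2%. The CHR letters separated these genes from other promoters by more percentage points than CCAAT did in each comparison. The gaps were 52.3 against 36.3 points beside all other genes. In windows of 100 bp to each side of the summit they were nearer, at 44.9 against 40.0 points. Both sets of letters were searched because such genes are known for them, so their high shares here are no independent support. A match is a run of letters and no measurement of binding, and the intervals cover counting error over genes.

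**Figure D3:**
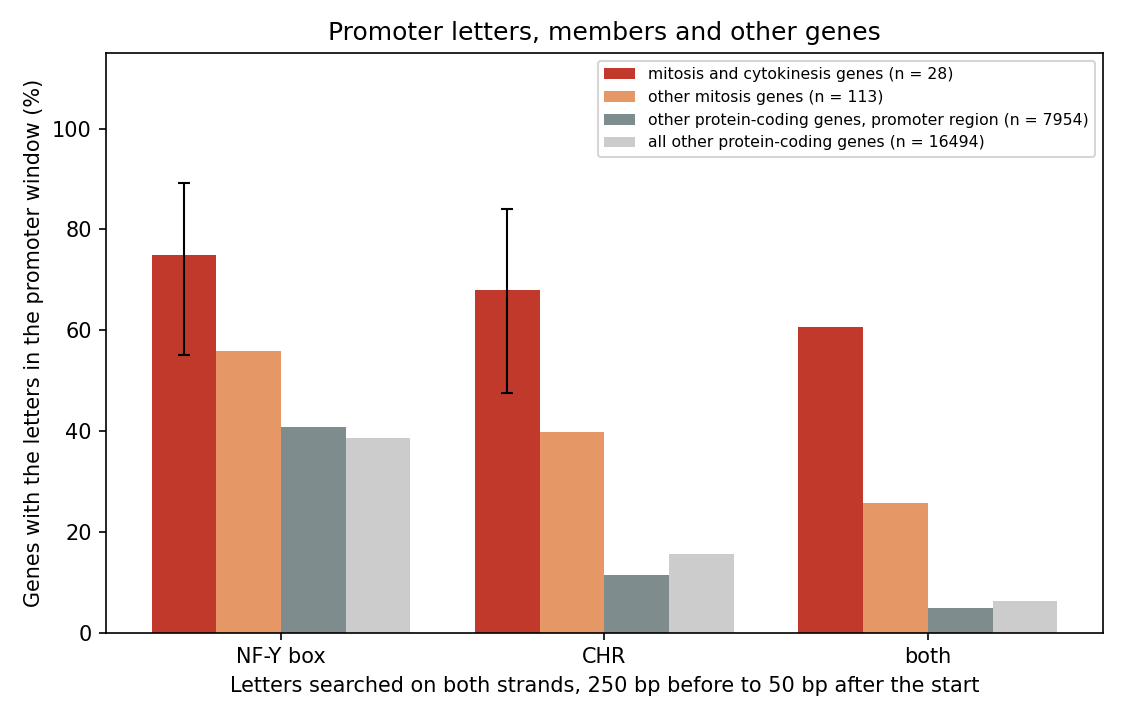
Share of genes (%) with an NF-Y box, a CHR or both in the RefSeq promoter window, for the 28 mitosis and cytokinesis genes with a window, 113 other mitosis genes, 7954 other protein-coding genes with a promoter region and all 16494 others. Error bars on the first group are exact 95% intervals; the 28 genes have the highest share in each of the 3 sets of bars, at 75%, 67.9% and 60.7%.

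Other letters did not stand out. The E2F letters TTTGGCGC or TTTGCCGC, and TTTCGCGC or TTTCCCGC, which are better known from genes of DNA replication, were in 1 of 28 windows, that of Cdk1, or 3.57%, beside 2.93% of all other genes and 4.68% of those with a promoter region. The letters GATA preceded by A or T and followed by A or G, bound by the erythroid regulator GATA1, were in 4 of 28, or 14.3%, beside 26.0% and 17.9%. In windows of 100 bp to each side of the summit they were in 7 of 34, or 20.6%, beside 12.3% of other genes with a promoter region, so their order depends on the window. Repeated CCAAT was common: 12 of 28 windows, or 42.9%, held 2 or more, beside 13.2% and 16.6%. A pair 30 to 34 bp apart was in 5 of 28, or 17.9%, beside 1.92% and 3.21%. A pair needs 2 or more boxes, so much of this contrast repeats the last one. Of genes with 2 or more, 5 of 12 had such a pair, beside 317 of 2171 others and 255 of 1319 with a promoter region. The 5 genes were Cdk1, Ccnb1, Ccnb2, Aurka and Cdca8, of which 4 act at mitotic entry. Ccnb2 has 3 boxes whose first bases are 33 bp apart, as its printed stretch shows.

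The letters had preferred places. The first base of CCAAT was at a median position of −53.0 (bp, negative before the start) over 39 matches in 21 genes, and that of TTTGAA at a median position of 4 over 24 matches in 19 genes. TTTGAA began between 75 bp before and 25 bp after the start in 13 of 28 genes, or 46.4%, beside 4.30% of all other genes and 2.79% of those with a promoter region. CCAAT began 120 to 20 bp before the start in 16 of 28, or 57.1%, beside 22.6% and 26.2%. These shares are over all genes, and so also count whether a gene has the letters. Of genes with TTTGAA, 13 of 19 had it so placed, beside 709 of 2561 others and 222 of 908 with a promoter region. Of genes with CCAAT, 16 of 21 had it so placed, beside 3735 of 6377 others and 2085 of 3237 with a promoter region. For CCAAT the groups thus stood nearer together than over all genes. The accessibility summit lay close to the CCAAT boxes. In the 21 genes with a box its distance to the nearest one was a median of 12.0 bp, and it was within 50 bp in 17 of them, or 81.0%. In 2427 other genes with a box and the summit inside the window the median was 27.0 bp, with 69.6% within 50 bp. Genes with several boxes have more chances of a near one. Among genes with 1 box the medians were 23.0 bp in 9 of these genes and 45.5 bp in 1330 others. The summit was within 50 bp in 66.7% of those 9 and 54.3% of those 1330. For TTTGAA the median distance was 67.0 bp in 19 of these genes and 120 bp in 577 others, with 36.8% and 17.2% within 50 bp.

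**Figure D4:**
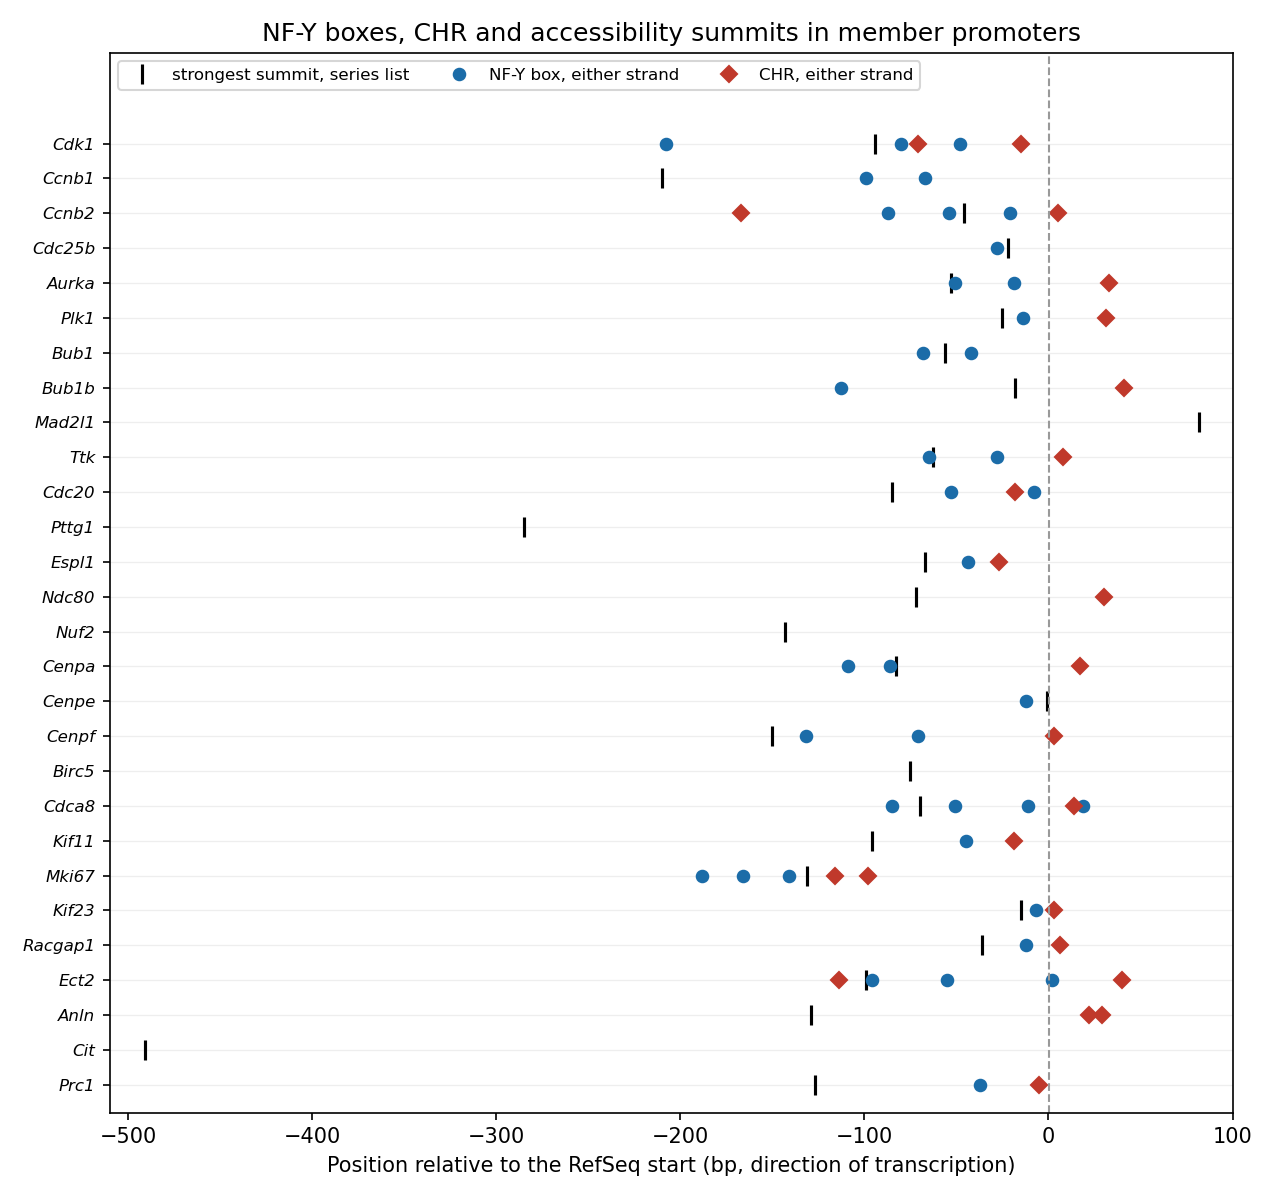
Positions of NF-Y boxes (blue circles), CHR (red diamonds) and the strongest accessibility summit in the series list (black ticks) relative to the RefSeq start (bp, dashed line), one row for each of the 28 genes with a window that runs from 250 bp before to 50 bp after the start. Boxes lie on both sides of the summit and nearly all before the start, and the CHR cluster around the start. The RefSeq start can differ from the nearest GENCODE start, from which summit offsets are given in the text; the summit of Cit is farthest from its RefSeq start.

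Windows centred on the summits, 100 bp to each side, could be read for all 34 genes. CCAAT was in 26, or 76.5%, beside 36.4% of 10003 other genes with a promoter region, and TTTGAA was in 17, or 50%, beside 5.09%. In the RefSeq windows 5 of 28 genes held neither set of letters: Mad2l1, Pttg1, Nuf2, Birc5 and Cit. For Mad2l1, Pttg1 and Cit the summit lay outside that window, at positions 82, −285 and −491 from the RefSeq start. Their windows therefore do not hold the sequence at the summit. Ndc80 and Anln held TTTGAA without CCAAT, and Ccnb1, Cdc25b, Bub1 and Cenpe held CCAAT without TTTGAA. Promoter fold showed no clear order by TTTGAA. Its median was 11.2 in the 19 genes with TTTGAA and 11.7 in the 9 without. By CCAAT the medians stood further apart, at 12.9 in the 12 genes with 2 or more and 10.4 in the other 16. The ranges overlapped, at 8.88 to 16.8 and 6.97 to 16.5, and the difference was not tested. Mki67, with 3 CCAAT, had the lowest fold of the first set. Pttg1, with none in its window, had the highest of the second, but its summit lay outside that window.

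Base composition went with accessibility across all genes and was high in these promoters. The ratio of observed to expected CpG had a median of 0.880 in the 28 windows, against 0.596 in all other genes and 0.796 in those with a promoter region. It was at or above 0.6 in 26 of 28, or 92.9%, beside 49.8% of all other genes and 78.4% of those with a promoter region. Of other genes at or above that ratio, 75.9% had an accessible promoter, against 20.8% of those below it. All 26 of these genes at or above it had one. The 2 below, Cenpa at 0.520 and Cit at 0.266, were accessible as well. The summit of Cit lay outside its window, so its ratio does not describe the sequence at the summit. Among accessible promoters at or above the ratio, the median fold was 11.5 in the 26 genes and 11.0 in 6233 others. The part of CpG content in the accessibility or fold of the 34 genes was not tested.

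Distal accessibility was sparse. A distal region lies within 1 kb of no start of any gene and is assigned to the nearest start within 100 kb. There were 16 at 12 of the 34 genes, or 35.3% with any, beside 19.4% of all other protein-coding genes and 30.5% of those with a promoter region. The mean number per gene was 0.471, against 0.345 in all other genes and 0.578 in those with a promoter region, and the median was 0 in all 3 sets. Set beside other genes with an accessible promoter, these numbers are near the background. In the replicates' own lists, 11 of the 34 genes had a distal region in replicate 1, beside 13.5% of all other genes, and 9 in replicate 2, beside 12.7%. The share among other genes with a promoter region, the nearer background, was not taken in those lists. Of the 16 regions, 9 were intronic, 7 intergenic and 0 exonic, 4 lay within 2 kb of a start, and 11 were in both replicates' own lists. Their median fold was 5.72, below the 6.52 of all 11502 distal regions.

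Mki67 had the only distal region stronger than the promoter of its gene. It lies 5.05 kb upstream at chr7:135721414-135722301 and had a series fold of 9.21, with 8.67 in replicate 1 and 8.93 in replicate 2, against promoter folds of 8.88, 8.53 and 8.68. The difference was small but in the same direction in each list. The strongest distal region was in an intron of Cit at chr5:115958100-115959202, 7.01 kb from an internal start, with 11.0, 10.8 and 10.3. At its other distal regions, with folds of 4.70 and 4.28, neither replicate's own list held a region. Bub1b had 2 intronic regions, with 7.81, 6.78 and 6.54 and with 7.90, 6.71 and 7.76. Cenpe had an intronic region with 8.74, 8.38 and 7.15, against promoter folds of 9.66, 9.27 and 9.09. The sequence at the summit of that region repeats a short unit, and the part of the repeat in the peak was not tested. Kif23 had one 1.28 kb upstream with 8.17, 7.11 and 8.58. The 2 regions upstream of Aurkb were weak, at 4.79 and 3.58. Those nearest to Cdk1 and Ccnb2, at 5.37 and 4.71, were in neither replicate's own list, and the one nearest to Cenpf, at 7.16, was in replicate 1's alone.

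**Figure D5:**
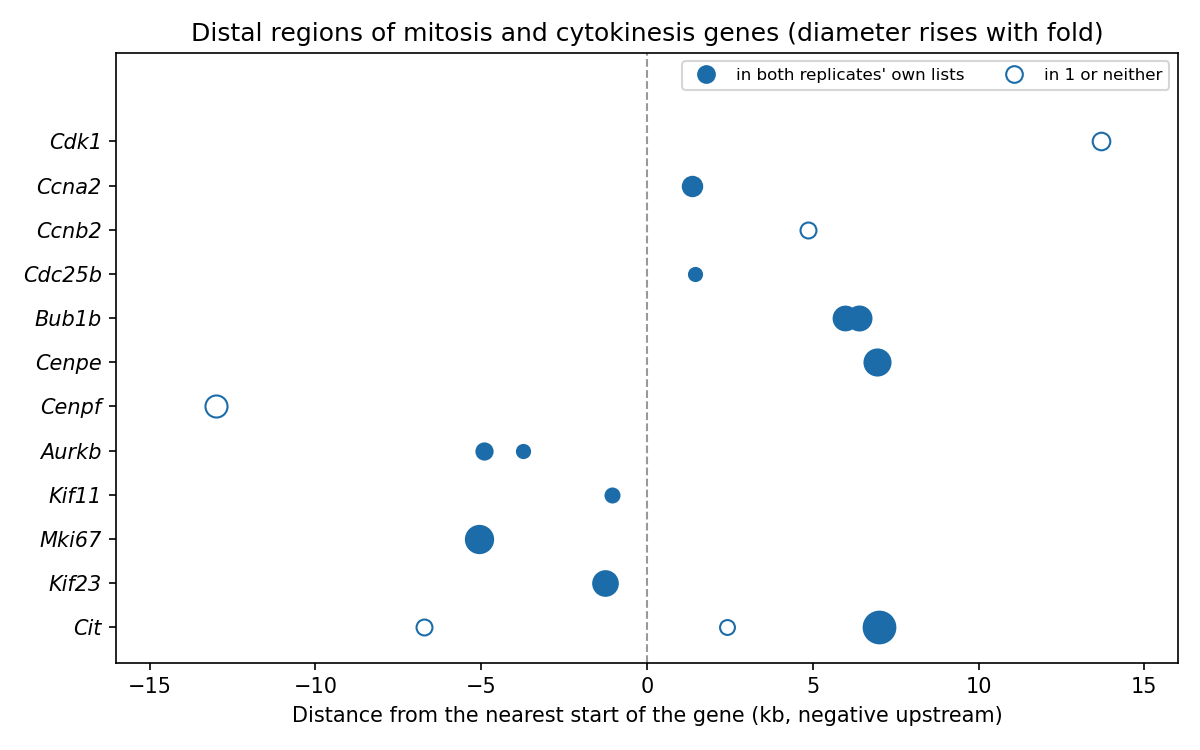
Distance (kb, negative upstream) of the 16 distal regions from the nearest start of their gene, one row for each of 12 genes, with the diameter of a point rising with fold. Filled points are the 11 regions in both replicates' own lists and open points the other 5; the largest points are Cit at 7.01 kb and Mki67 at 5.05 kb upstream.

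The summits of the strongest of these regions are shown because the distal sites of erythroid genes are known for GATA letters. Capitals mark the GATA letters on either strand, and both stretches of 121 bases are read on the plus strand, for Cit at chr5:115958491-115958611 and for Mki67 at chr7:135721853-135721973.
Cit: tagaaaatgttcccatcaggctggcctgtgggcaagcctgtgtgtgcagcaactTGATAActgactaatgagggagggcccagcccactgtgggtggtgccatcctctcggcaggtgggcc
Mki67: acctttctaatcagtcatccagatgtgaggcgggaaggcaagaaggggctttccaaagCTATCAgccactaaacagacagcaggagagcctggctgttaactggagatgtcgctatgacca
Within 100 bp of the summit, GATA letters were found in 8 of the 16 distal regions, or 50%, and in 5741 of 11486 other distal regions, also 50%. The share is at the background.

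Assignment decided the number at Mki67. When only starts of protein-coding genes could claim a region, a rule chosen after seeing the data, the 34 genes had 26 distal regions in place of 16, and Mki67 had 8 in place of 1. The mean per gene was then 0.765, against 0.504 in all other genes, whose mean had been 0.345. The regions it gained are nearest to starts of the noncoding genes Gm36431 and 6330420H09Rik. The strongest, at chr7:135735302-135736757 and 18.9 kb from the start of Mki67, had a series fold of 11.9, with 9.62 in replicate 1 and 12.7 in replicate 2. Incenp gained 2 and Ccnb2 gained 1. Which gene such a region serves cannot be read from accessibility.

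A wider list of 132 other mitosis genes gave similar promoter calls. A promoter region was found at 131 of 132, in the series list and in both replicates' own lists, with a median fold of 11.3, and 78 of 132 exceeded the median of other genes. The exception was Cep55, which acts in abscission and had no promoter region in any list used here. All 8 condensin genes, 15 cohesin genes and regulators, 18 genes of the anaphase-promoting complex, 34 further kinetochore and checkpoint genes and 26 spindle and centrosome genes had one. The highest fold was 17.4 at the centromere gene Cenpw, followed by 16.8 at Ckap5, a microtubule polymerase, 16.4 at Sgo2a, a protector of cohesin, and 16.2 at Anapc1, a scaffold of the anaphase-promoting complex. The lowest was 5.54 at Fzr1, which encodes the other activator of that complex.

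The regulators of late cell cycle transcription had a lower median promoter fold than the 34 genes and than other genes. All 7 genes of MuvB, B-MYB and FOXM1 were accessible, with a median of 9.65, and 1 of the 7 exceeded the median of other genes. That was Mybl2, encoding B-MYB, with a series fold of 13.0, 13.1 in replicate 1 and 12.2 in replicate 2. Foxm1 had 8.08, 8.03 and 7.82, and Lin54, the MuvB subunit that contacts the CHR, had 8.92, 8.65 and 8.61. In the wider list TTTGAA was in 45 of 113 windows, or 39.8%, and CCAAT in 63, or 55.8%, with both in 25.7%. These shares lie between those of the 28 genes and those of other promoters. For TTTGAA alone, spindle and centrosome genes came nearest to the 28, with 15 of 25 windows, or 60%, whereas genes of the anaphase-promoting complex had it in 4 of 17, or 23.5%.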

How the data were processed

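Per the file listing, the authors deposited ATAC-seq peak lists on mm10 for each replicate and for the series, thresholded on IDR. The score, the fold enrichment (a ratio over local background) and the −log10 p of each peak are the authors' deposited values. Which aligner and caller made them is not given in the sources used here. Signal tracks were not used. Read depth is unknown from peak lists. Overlapping or touching records were merged, and genes were read from GENCODE M21 on GRCm38.p6, with positions 1-based. The percentile of a gene is the share of other genes' strongest promoter regions with a lower fold. Replicate values stand side by side, with no SD and no p computed, because 1 group allows no contrast. Promoter letters were read from RefSeq windows. The region steps were tested on simulated data. Python 3.11.15, numpy 2.4.6, scipy 1.17.1 and matplotlib 3.10.9 were used. Alternatives covered other lists, windows, reaches, starts and a stricter threshold. The genes and lists were chosen with earlier results of these data known. Genes were named as members of the list, or as the highest, lowest or exceptional gene of a wider list.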

Additional observations from a re-analysis of the deposited data

How the results depend on the processing

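Of 41 alternatives, 38 left their result within its limits and 3 moved it, all of them the number of distal regions. The limits were wide: a fixed factor for a count, and the span of the members' exact interval for a letter share. The 38 are therefore no measure of how firm the results are. That number was 16 in the series list, 32 in the less strict overlap list, 6 in the upper 50% of regions by fold, and 26 when only starts of protein-coding genes could claim a region, a rule added after seeing the data. The mean per gene was 0.471, 0.941, 0.176 and 0.765 in that order, and that of all other genes moved with it, at 0.345, 0.718, 0.116 and 0.504. Without replicate 1 or replicate 2 it was 11 to 12, the promoter count was 34, the genes above the others' median fold were 22 to 23, and the other mitosis genes with a promoter were 131. Under the stricter threshold 33 of 34 promoters remained, beside 37.3% of other genes, and the one lost was Cdc25b. The share with E2F letters exceeded that of all other genes by 0.643 percentage points, but the difference was −1.11 beside genes with a promoter region and −0.568 in summit windows. These changes of sign were counted as within the limits. No paired analysis was possible because the labels give 1 group. The lists hold no read counts, so depth limits what a missing region means.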
